A study of Mus musculus with 41 samples.

Results

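The immediate early transcription factor genes form a group of 10 listed genes, Fos, Fosb, Jun, Junb, Egr1, Ier2, Ier3, Klf6, Socs3 and Myc, out of 24511 in an expression table of mouse liver and liver tumour. They were chosen by symbol, because such genes react to tissue handling, with no threshold on their values but with earlier results of these data known. All 10 were in the table, and 9 of them passed a filter that required their mean value to reach 3. Fosb, at a mean of 2.37, did not. Gene expression was measured by RNA-seq of polyA RNA in male C57BL/6 mice, and 35 libraries in 11 groups were used. The NC groups (NC is not spelled out in the labels) are livers described as healthy, from CD8kMup, IgAkMup, MupHe and B6 mice. Fatty livers of mice on a high-fat diet (HFD), the HFD control groups, came from IgAkCLM and B6 mice. Livers with steatohepatitis (NASH) on that diet came from IgAkMup and MupHe mice, and hepatocellular carcinomas (HCC) on it from CD8kMup, IgAkMup and MupHe mice. The genotype names are kept as given, and the labels describe no allele, promoter or age. There were 4 libraries in MupHe HCC and in IgAkMup HCC, and 3 in each other group. The labels do not say that these are separate animals, so p-values measure the spread between these libraries, which may be technical. HFD libraries carry the number that ends their column name.

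Immediate early genes are switched on within minutes of a stimulus, without new protein synthesis, by transcription factors that already sit in the cell. In liver they are known from regeneration after partial hepatectomy, from acute-phase signalling and from the time between excision and lysis of the tissue. Fos, Fosb, Jun and Junb encode subunits of the AP-1 dimer. Egr1 and Klf6 encode zinc finger factors, Ier2 a nuclear regulator, Ier3 a stress and survival protein, Socs3 the feedback inhibitor of JAK-STAT3 signalling, and Myc the factor that drives growth and ribosome production.

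Stretches of the promoter windows of Fos, Fosb, Junb and Socs3 are shown because they hold letters that occur in known types of response element. Capitals mark TGACG, the core letters of the cyclic AMP response element that CREB binds, and in Socs3 TTCNNNGAA, the site type of STAT factors. Sequences are from RefSeq (GRCm38.p6, the mm10 build), 5′ to 3′ on the gene's strand. Fos (chr12:85473750-85473889, + strand) and Junb (chr8:84978749-84978888, - strand) are given for the 140 bases before the start, Fosb (chr7:19310088-19310117, - strand) and Socs3 (chr11:117969501-117969530, - strand) for 30 bases around the letters.
Fos: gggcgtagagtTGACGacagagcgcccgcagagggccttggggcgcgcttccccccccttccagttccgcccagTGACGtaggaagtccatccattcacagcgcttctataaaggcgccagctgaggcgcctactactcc
Junb: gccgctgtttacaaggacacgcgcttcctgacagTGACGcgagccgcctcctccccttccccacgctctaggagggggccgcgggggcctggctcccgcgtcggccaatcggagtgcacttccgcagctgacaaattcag
Fosb: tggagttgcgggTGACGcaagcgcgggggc
Socs3: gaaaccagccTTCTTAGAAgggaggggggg

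Positions count from the start that the RefSeq promoter table uses for each gene, and TGACG begins 129 and 66 bases before that of Fos and 106 before that of Junb. For Fosb the table's start is at 19310045, inside the annotated gene, whose span begins at 19310118 on its strand, and TGACG begins 60 bases before the table's start. For Socs3 the table's start is at 117969366 and the gene's span begins at 117970336, so the STAT letters, 154 bases before the table's start, also lie inside the span. On both strands of windows running from before to after each start, TGACG was in 3 of the 7 promoters of the group that were matched, and in 20.8% of all 32851 promoters. TTCNNNGAA was in 1 of the 7, against 8.3% of all. A match of letters is a description and not a measured site.

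Expression values are regularized log2 (rlog2) values that the authors deposited, so a difference of 1 is a doubling. Their depth is unknown, low values are shrunk toward the gene's mean, and levels are not comparable between genes. Differences carry standard errors, and adjusted p-values are from a limma fit over 12337 genes. Among the hepatocyte markers, Alb, encoding albumin, ranged from 18.2 to 20.1 over the libraries. Tat, which had the lowest value of that list, ranged from 9.07 to 14.2. In a principal component analysis, 3 tumours lay apart on the second component, MupHe HCC 3 (-29.1), IgAkMup HCC 5 (-28.4) and IgAkMup HCC 9 (-35.6), where the other tumours ranged from -5.12 to 24.7. Each column name also holds a tag of unstated meaning. The tag SS N marks B6 HFD control and IgAkMup NASH, Tri N marks IgAkCLM HFD control and MupHe NASH, SS H all tumours and Tri NC all NC livers.

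**Figure D1:**
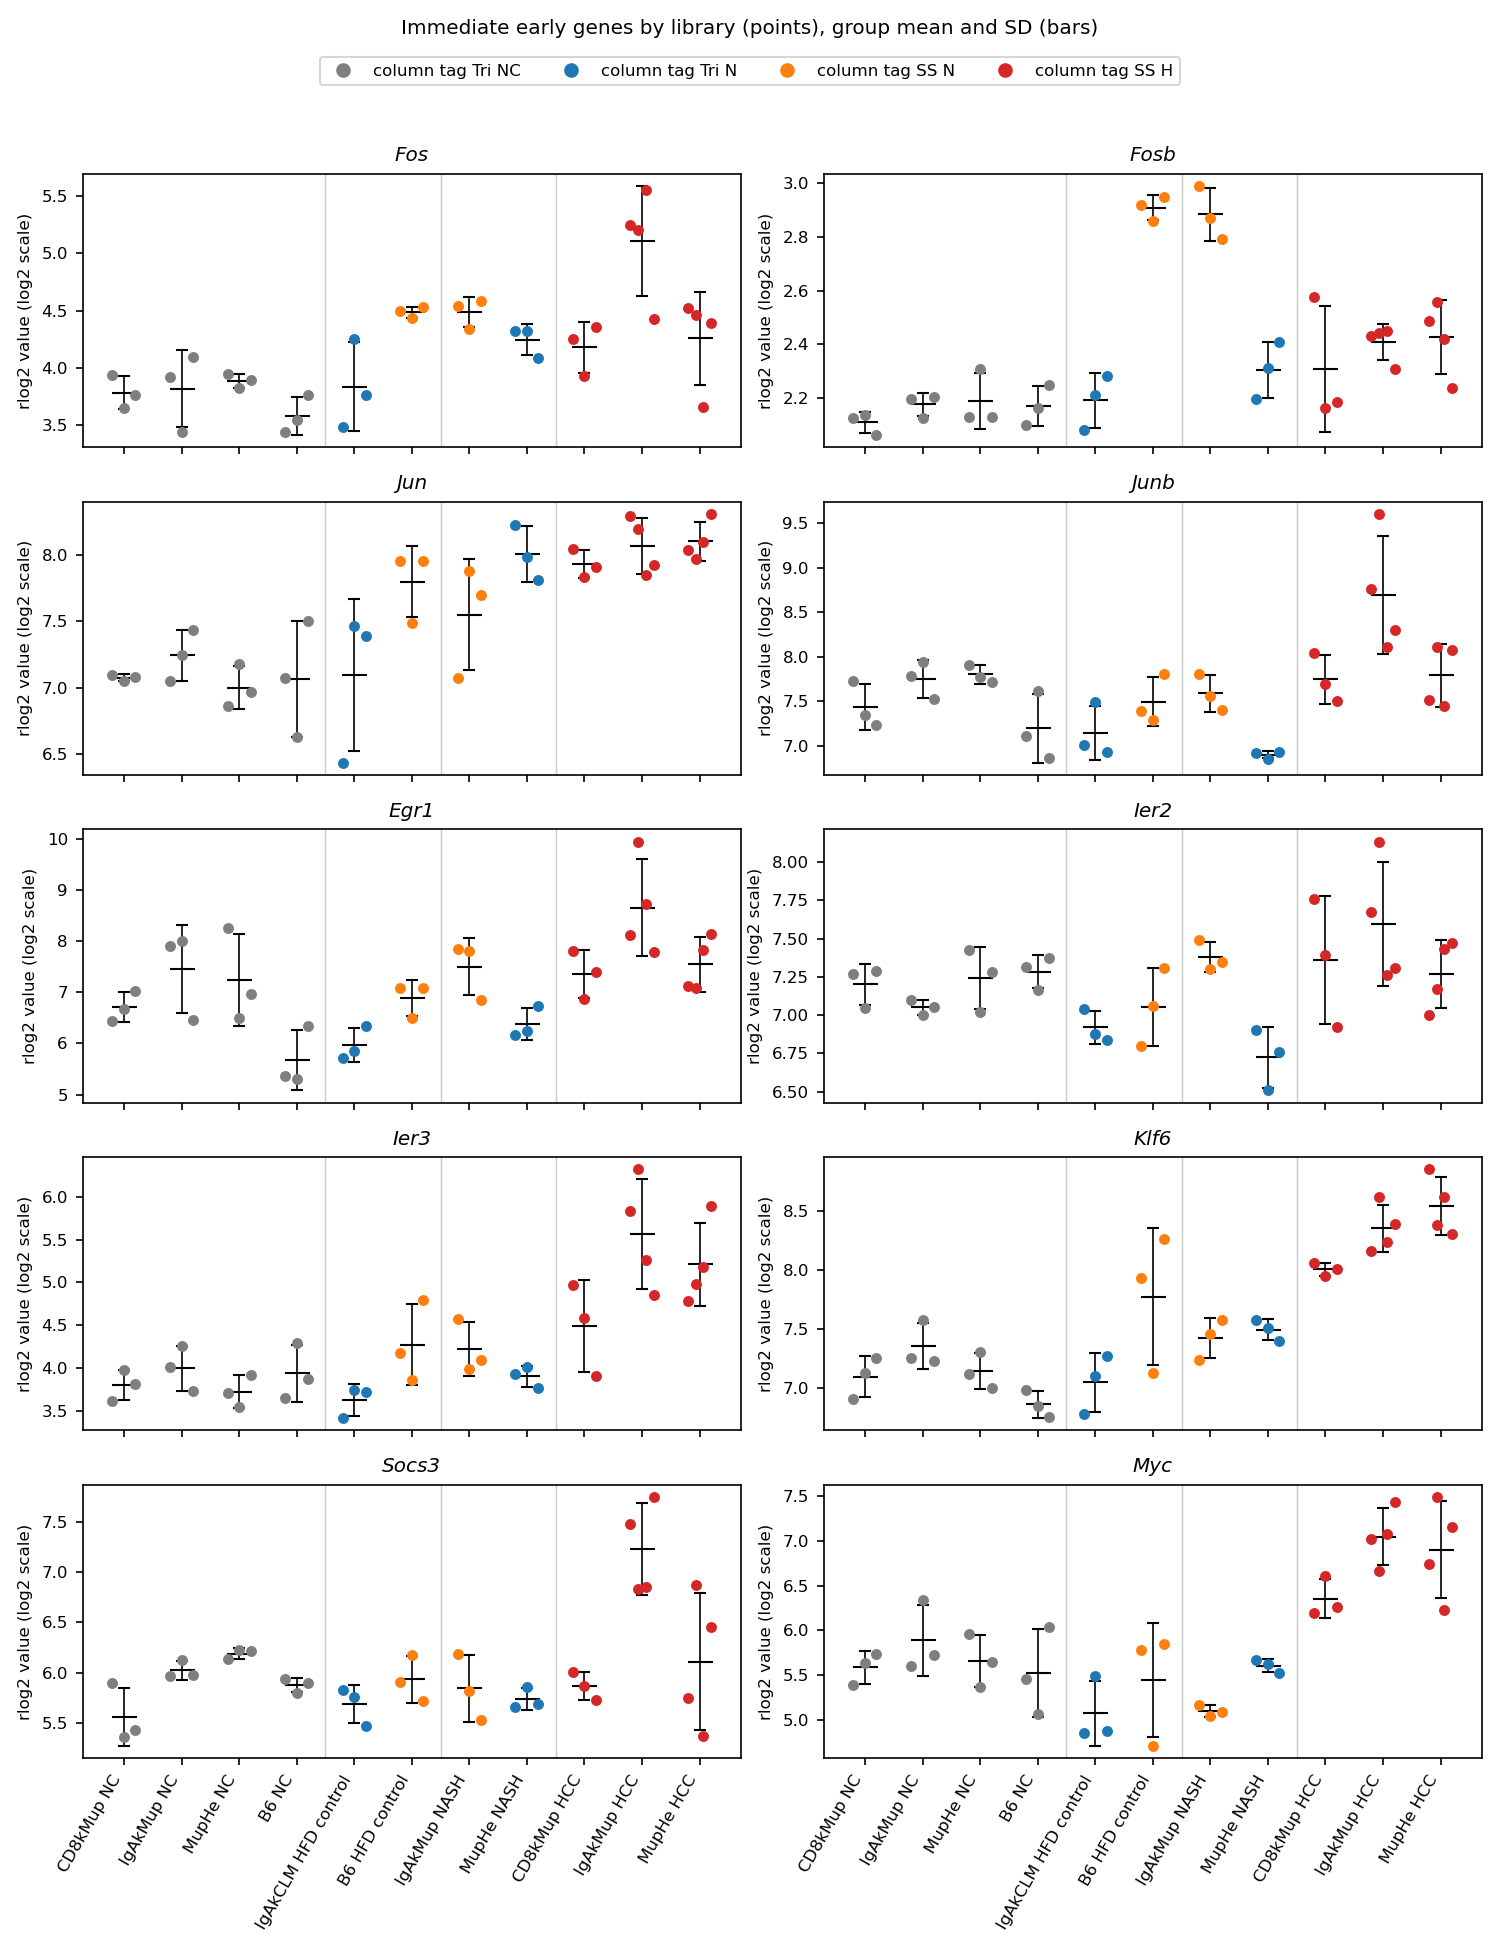
Values of the 10 genes in each library (points, rlog2, log2 scale), with the mean and SD of each group (bars), groups on the x axis from NC livers to tumours and colours for the column tag. Myc stood at 6.20 to 7.49 in tumours, and Fosb at 2.79 to 2.99 in the libraries tagged SS N, above all others.

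Tumours were compared with NASH livers over the MupHe and IgAkMup genotypes. Of the 9 genes tested 7 were higher in tumours, none was lower, and the median difference was 0.99, against 0.01 over all genes. Of all genes 48.4% passed the test, 25.5% as higher in tumours. Myc rose by 1.63 ± 0.19 (adjusted p = 1.11e-07), Ier3 by 1.33 ± 0.20 (5.11e-06), Egr1 by 1.15 ± 0.31 (0.0033), Junb by 1.00 ± 0.18 (3.3e-05), Klf6 by 0.99 ± 0.13 (3.39e-07), Socs3 by 0.88 ± 0.17 (0.000128) and Ier2 by 0.38 ± 0.13 (0.0144). Fos, at 0.32 ± 0.15 (0.0844), and Jun, at 0.31 ± 0.15 (0.09), did not pass. The 7 calls held in each of the 14 fits that left out 1 library. That of Ier2 was lost when only the compared groups entered the fit (adjusted p = 0.0514), and Fos passed without the 3 tumours that lay apart (0.42, 0.0217), an alternative chosen after seeing the data. Fos also passed without MupHe HCC 4 (0.42, adjusted p = 0.0147) or without IgAkMup HCC 9 (0.43, 0.0097), and Jun without IgAkMup NASH 3 (0.39, 0.0438). In bulk tissue, fewer cells of a type and less RNA per cell cannot be told apart.

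Myc had the largest difference of the group. It stood at 7.02, 6.66, 7.07 and 7.44 in IgAkMup HCC, against 5.16, 5.04 and 5.08 in IgAkMup NASH, and at 6.74, 7.49, 6.23 and 7.15 in MupHe HCC, against 5.66, 5.62 and 5.52 in MupHe NASH. In both genotypes every tumour lay above every NASH liver, and the same held for Junb, Ier3 and Klf6. How many of all genes separate in this way was not counted. By limma 43.8% of all genes passed in IgAkMup and 30.7% in MupHe. Klf6, at 8.17, 8.62, 8.24 and 8.39 in IgAkMup HCC against 7.24, 7.46 and 7.58 in IgAkMup NASH, had the smallest SD of these genes among the IgAkMup tumours. In MupHe it stood at 8.86, 8.38, 8.62 and 8.31 in HCC, against 7.58, 7.51 and 7.40 in NASH.

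Ier3, whose product is induced by NF-kappaB and by stress, stood at 5.84, 6.32, 5.26 and 4.86 in IgAkMup HCC, against 4.58, 3.99 and 4.10 in IgAkMup NASH. In MupHe it was at 4.79, 4.98, 5.18 and 5.89 in HCC, against 3.93, 4.01 and 3.77 in NASH. Its highest library of all 35 was IgAkMup HCC 7. The same tumour was the highest of its group in Junb, Egr1, Ier2, Ier3 and Klf6. For Junb it reached 9.61, beside 8.76, 8.12 and 8.30 in the other IgAkMup tumours, against 7.81, 7.55 and 7.40 in IgAkMup NASH. For Egr1 it reached 9.94, beside 8.12, 8.73 and 7.79, against 7.84, 7.81 and 6.86 in IgAkMup NASH, where the groups overlapped. In MupHe, Junb stood at 7.52, 8.11, 7.45 and 8.08 in HCC, against 6.92, 6.85 and 6.92 in NASH, and Egr1 at 7.12, 7.08, 7.83 and 8.14 in HCC, against 6.16, 6.25 and 6.74 in NASH. Without IgAkMup HCC 7 the Egr1 difference in IgAkMup was 0.71 and did not pass (adjusted p = 0.172).

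Within IgAkMup 8 of the 9 genes were higher in HCC than in NASH, where 43.8% of all genes passed and 23.2% as higher. Within MupHe 6 were higher, against 30.7% of all genes called and 16% higher. All tumours carry the tag SS H, MupHe NASH carries Tri N and IgAkMup NASH carries SS N, so stage and tag cannot be told apart here. Between livers without tumour, Tri N minus SS N was negative for 5 of the 6 genes called in MupHe, at -1.02 for Egr1, -0.52 for Junb, -0.48 for Ier3, -0.40 for Ier2 and -0.33 for Klf6, and 0.07 for Myc. Of these only Egr1 passed by limma (adjusted p = 0.0416), and tag and genotype cannot be told apart there. The part of the tag in the MupHe differences was not tested. Socs3 rose by 1.39 ± 0.24 in IgAkMup (adjusted p = 5.29e-05), and its difference in MupHe was 0.37 ± 0.24 (0.253). It stood at 7.48, 6.83, 6.86 and 7.75 in IgAkMup HCC, against 6.19, 5.82 and 5.52 in IgAkMup NASH. In MupHe the tumours spread from 5.36 to 6.88 and overlapped the NASH livers at 5.66, 5.86 and 5.68. The difference between the genotypes was 1.01 ± 0.34 and did not pass (adjusted p = 0.0577).

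Fos and Jun passed in IgAkMup, by 0.62 ± 0.21 (adjusted p = 0.0201) and 0.51 ± 0.21 (0.0469), and stood at 0.01 ± 0.21 and 0.10 ± 0.21 in MupHe. Both IgAkMup calls were lost with only the compared groups in the fit (adjusted p = 0.109 for Fos and 0.105 for Jun), and Fos also with quantile normalization (0.112). That of Fos was lost without IgAkMup HCC 8 (0.47, 0.0809) or IgAkMup NASH 3 (0.55, 0.0815), and that of Jun in 4 of 7 such fits, down to 0.28 without IgAkMup NASH 2. The Jun call was also lost without a filter (0.0659), with median centring (0.0843) and with library weights (0.278). Ier2 passed in MupHe (0.54 ± 0.18, 0.0216), while in IgAkMup it was at 0.22 ± 0.18 (0.339). That call and the Egr1 calls of both genotypes, at 1.16 ± 0.44 (0.047) in MupHe and 1.14 ± 0.44 (0.0374) in IgAkMup, were lost in 3 to 5 of the 7 fits that left out 1 library. With library weights none of these 3 calls held (adjusted p = 0.0774, 0.137 and 0.249), and both Egr1 calls were lost without a filter (0.0745 in MupHe and 0.0574 in IgAkMup). Of the 9 genes 0 differed between the genotypes by limma, 1 with an unadjusted p under 0.05, and 10% of all genes did. MupHe NASH carries the tag Tri N and IgAkMup NASH the tag SS N, and this comparison cannot be told apart from the tag.

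**Figure D2:**
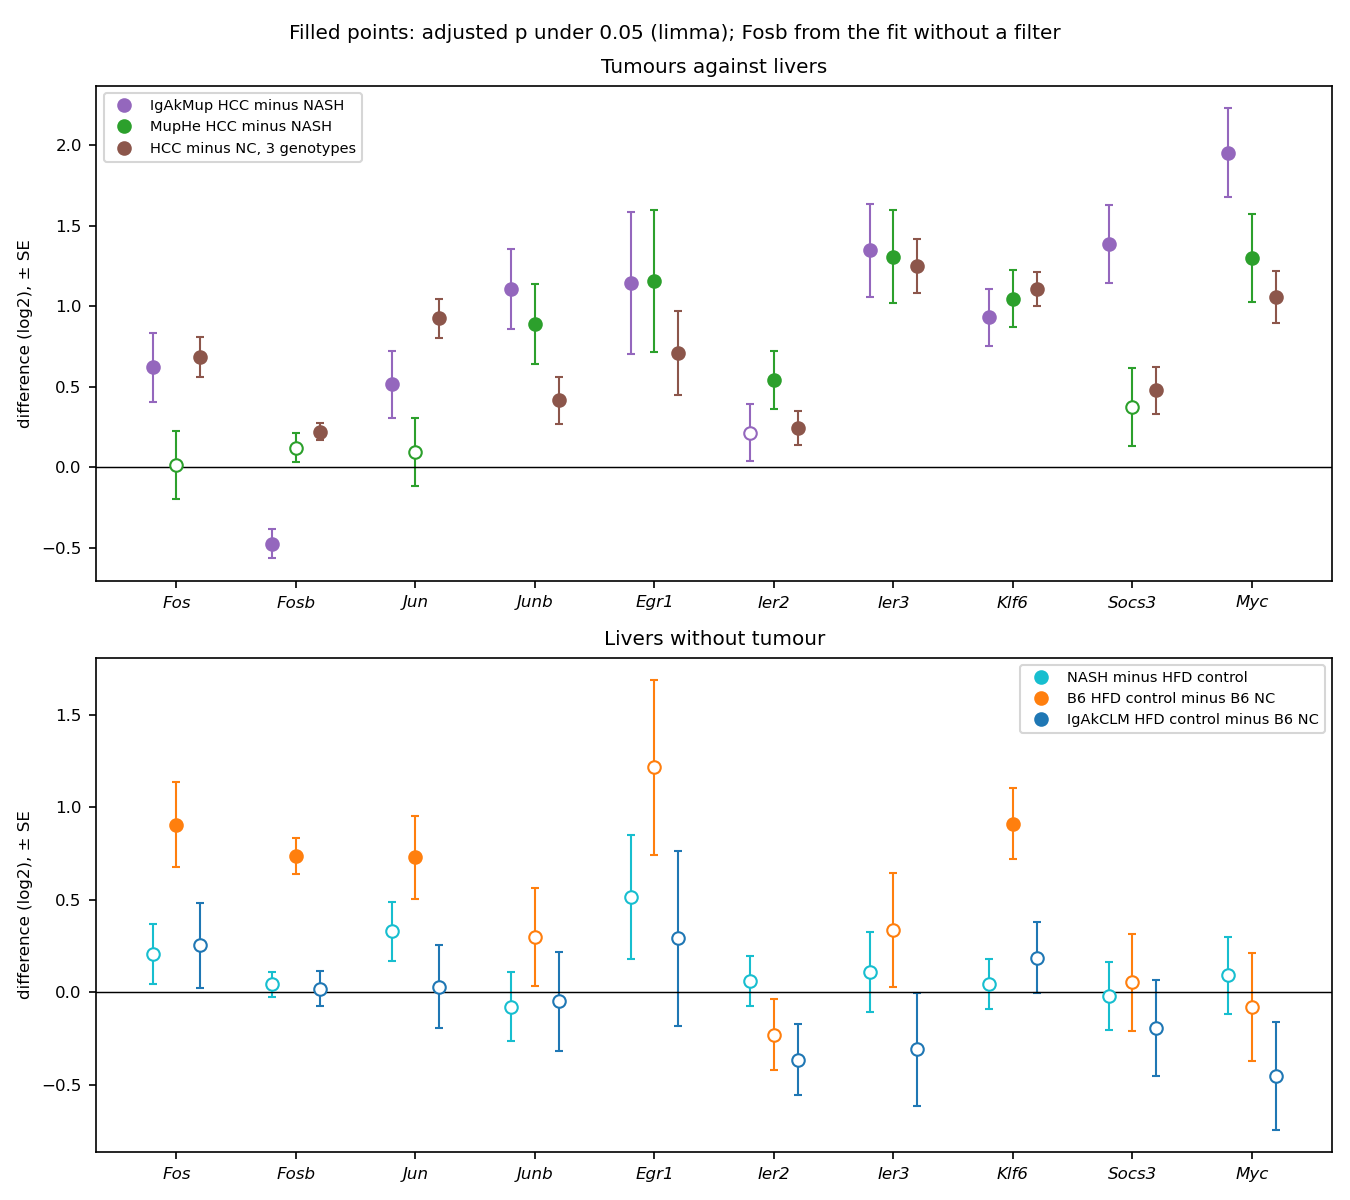
Differences in log2 with standard errors for the 10 genes (x axis), upper panel tumours against NASH or NC livers, lower panel livers without tumour, filled where the adjusted p was under 0.05. In IgAkMup Fosb fell by 0.48 in the fit without a filter, while Myc rose by 1.95.

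Fosb moved apart from the rest. It stood at 2.43, 2.44, 2.45 and 2.31 in IgAkMup HCC, against 2.99, 2.87 and 2.79 in IgAkMup NASH, with no overlap. In MupHe it was at 2.49, 2.56, 2.42 and 2.24 in HCC, against 2.20, 2.31 and 2.41 in NASH, which overlapped. The exact two-sided permutation tests gave p = 0.0571 for IgAkMup and p = 0.229 for MupHe. Adjusted over 14 tests, these were 0.467 and 0.64. With 4 tumours against 3 NASH livers and no overlap, the unadjusted IgAkMup value is the smallest that this test can give. In the limma fit without a filter, over 18912 genes, it fell by 0.48 ± 0.09 in IgAkMup (adjusted p = 0.000224, with 31.5% of all genes called) and was at 0.12 ± 0.09 in MupHe (0.394). The difference between the genotypes, -0.60 ± 0.13, passed there (adjusted p = 0.00652, 5.80% of all genes). Over both genotypes it was -0.18 ± 0.06 (0.0303, 35.8%).

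Other genes of the pathway moved unevenly between tumours and NASH livers, where 48.4% of all genes passed and 25.5% rose. Of 8 other AP-1 genes tested 5 rose and 1 fell, and those that rose included Maff (1.41 ± 0.30), Fosl2 (0.69 ± 0.11) and Mafk (0.63 ± 0.11). Of 16 other immediate early regulators 2 rose and 4 fell, led by Ier5 (1.35 ± 0.13) and by Klf9 (-0.85 ± 0.13), a glucocorticoid-induced factor. Of 31 feedback and signalling genes 14 rose and 3 fell, with Ctgf, a YAP target (1.45 ± 0.33), Dusp4, a phosphatase of MAP kinases (1.38 ± 0.20), and Tnfaip3, an inhibitor of NF-kappaB (1.23 ± 0.19), higher and Errfi1, an inhibitor of EGFR, lower (-1.23 ± 0.21).

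Around Socs3, 2 of 15 JAK-STAT3 genes rose and 2 fell. Osmr, the oncostatin M receptor, rose by 1.06 ± 0.17 and Jak2 by 0.35 ± 0.10, while Lifr (-0.94 ± 0.22) and Il6st (-0.42 ± 0.12), the other receptor chains, fell. Around Myc, 9 of 30 target genes rose and 1 fell, with Nop58 (0.66 ± 0.12) and Npm1 (0.56 ± 0.12) of the nucleolus and the kinase gene Cdk4 (0.53 ± 0.11) higher, and Ldha, lactate dehydrogenase A, lower (-0.80 ± 0.12). Of 9 partners of Myc 1 rose and 2 fell, and of 27 kinases and factors that act on immediate early genes 7 rose and 3 fell, with Mapk3, encoding ERK1, at 0.85 ± 0.10. The rises among the Myc targets and among the kinases and factors lie near the 25.5% of all genes that rose. Those among the other immediate early regulators, the JAK-STAT3 genes and the Myc partners lie below it. The rises among the other AP-1 genes and the feedback genes lie above it. The lists' median differences were 0.43 for the other AP-1 genes, 0.03 for the other regulators, 0.26 for the feedback genes, -0.02 for JAK-STAT3 and 0.11 for the Myc targets, against 0.01 over all genes.

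Markers of other cell types moved in the same comparison, where 48.4% of all genes passed and 25.5% rose, and their part in the result was not tested. Of 12 macrophage markers 6 rose and 3 fell, and the mean of the list ranged from 6.34 to 7.31 in tumours against 6.44 to 6.83 in NASH livers. Of 8 stellate and fibroblast markers 5 rose and 2 fell (6.54 to 9.06 in tumours, 7.47 to 7.98 in NASH). For bile duct markers 2 of 6 rose (5.47 to 8.55 in tumours, 5.72 to 6.44 in NASH), and for T cell markers 2 of 4 tested (3.69 to 5.50 in tumours, 3.66 to 3.96 in NASH). Of 10 hepatocyte markers 1 rose and 5 fell (14.1 to 15.3 in tumours, 15.1 to 15.4 in NASH). Of 3 neutrophil markers 1 rose, of 3 B cell markers none passed, of 8 endothelial markers 3 rose and 3 fell, and of 5 red cell markers 3 fell. Of 13 heat shock genes, which also react to handling, 1 rose and 3 fell. Of 4 RNAs that stay in the nucleus, 1 rose over both genotypes (median difference 0.32). They differed by genotype: 3 of 4 were higher in HCC than in NASH in IgAkMup (median 1.34) and 1 was lower in MupHe (median -0.60), and 3 of 4 passed for the difference between genotypes (median 1.93).

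In NASH livers against HFD controls none of the 9 genes passed, 1 had an unadjusted p under 0.05, and 1.32% of all genes passed. The largest difference was that of Egr1, 0.52 ± 0.33 (adjusted p = 0.572), and those of Junb, Klf6, Socs3 and Myc changed sign when single libraries were left out. Every NASH genotype holds Mup in its name and no HFD control does, so stage and genotype cannot be told apart. Within the tag Tri N, Jun stood at 8.23, 7.98 and 7.81 in MupHe NASH, against 6.44, 7.46 and 7.39 in IgAkCLM HFD control, without overlap (0.91 ± 0.22, adjusted p = 0.0571, where 0.559% of all genes passed). Within the tag SS N it stood at 7.08, 7.87 and 7.69 in IgAkMup NASH, against 7.95, 7.49 and 7.95 in B6 HFD control (-0.25 ± 0.22, 0.937, 0.251%). The difference of these contrasts was 1.16 ± 0.32 (adjusted p = 0.391, 0.0567% of all genes). Among the wider lists Atf3, a stress-induced AP-1 family gene, rose by 1.74 ± 0.34 in NASH, and Klf9 fell by 0.60. A heat shock gene (-0.47 ± 0.12) and a hepatocyte marker (-0.40 ± 0.09) also passed as lower.

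The same livers were also compared by tag. In Tri N libraries, IgAkCLM HFD control and MupHe NASH, Fosb ranged from 2.08 to 2.41, against 2.79 to 2.99 in SS N libraries, B6 HFD control and IgAkMup NASH, with 6 libraries on each side. The groups did not overlap, and no other library of the 35 reached the SS N values: the tumours ended at 2.58. Its difference was -0.65 ± 0.07 in the fit without a filter (adjusted p = 4.3e-07, with 7.88% of all genes called). Fosb lies under the filter, at a mean of 2.37, where values are shrunk. Its SD within groups was 0.11, at percentile 2 of the kept genes, so its small standard errors and p-values need caution. Fos, from 3.48 to 4.32 in Tri N against 4.34 to 4.58 in SS N, did not overlap either, but its difference of -0.45 ± 0.16 did not pass (adjusted p = 0.0637). Egr1 ranged from 5.71 to 6.74 in Tri N, against 6.49 to 7.84 in SS N.

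Egr1 was the 1 gene of 9 that passed, at -1.02 ± 0.33 (adjusted p = 0.0416), where 13.1% of all genes did and 5.15% were lower in Tri N. That call was lost in 8 of 12 fits that left out 1 library and without a filter (0.0687). Ier2 (-0.40 ± 0.14, 0.0507), Junb (-0.52 ± 0.19, 0.0654), Ier3 (-0.48 ± 0.22, 0.146) and Klf6 (-0.33 ± 0.14, 0.111) were negative with unadjusted p under 0.05. With only the compared groups in the fit 5 genes passed, but the share of all genes in that setting is not given here. Single libraries decided some of these: without IgAkCLM HFD control 2, Fos (adjusted p = 0.029) and Junb (0.0471) passed, and without B6 HFD control 2, Klf6 did (-0.49, 0.0042). Socs3 (-0.18 ± 0.18), Jun (-0.12 ± 0.16) and Myc (0.07 ± 0.21) had adjusted p of 0.59 to 0.878. IgAkCLM and MupHe stand on one side here and B6 and IgAkMup on the other, so the tag and these genotypes cannot be told apart.

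RNAs that stay in the nucleus moved with the tag in the opposite direction. Neat1 rose by 2.61 ± 0.28 and Malat1 by 2.21 ± 0.25 in Tri N, and 3 of 4 such RNAs were higher. Malat1 ranged from 10.9 to 11.4 in Tri N against 7.99 to 9.66 in SS N. Of the heat shock genes 0 of 13 were higher and 2 lower, Dnajb1 (-0.48 ± 0.11) and Hspe1 (-0.39 ± 0.12). Of the other AP-1 genes Jund fell by 0.50 and Mafg rose by 0.45, and of the feedback genes Sik1 (0.77 ± 0.20) and Nfkbiz (0.34 ± 0.11) rose and Gadd45b fell by 0.48. Per the labels' protocol some livers were extracted with Trizol and others with a column kit alone, without saying which. The part of extraction in these differences was not tested.

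**Figure D3:**
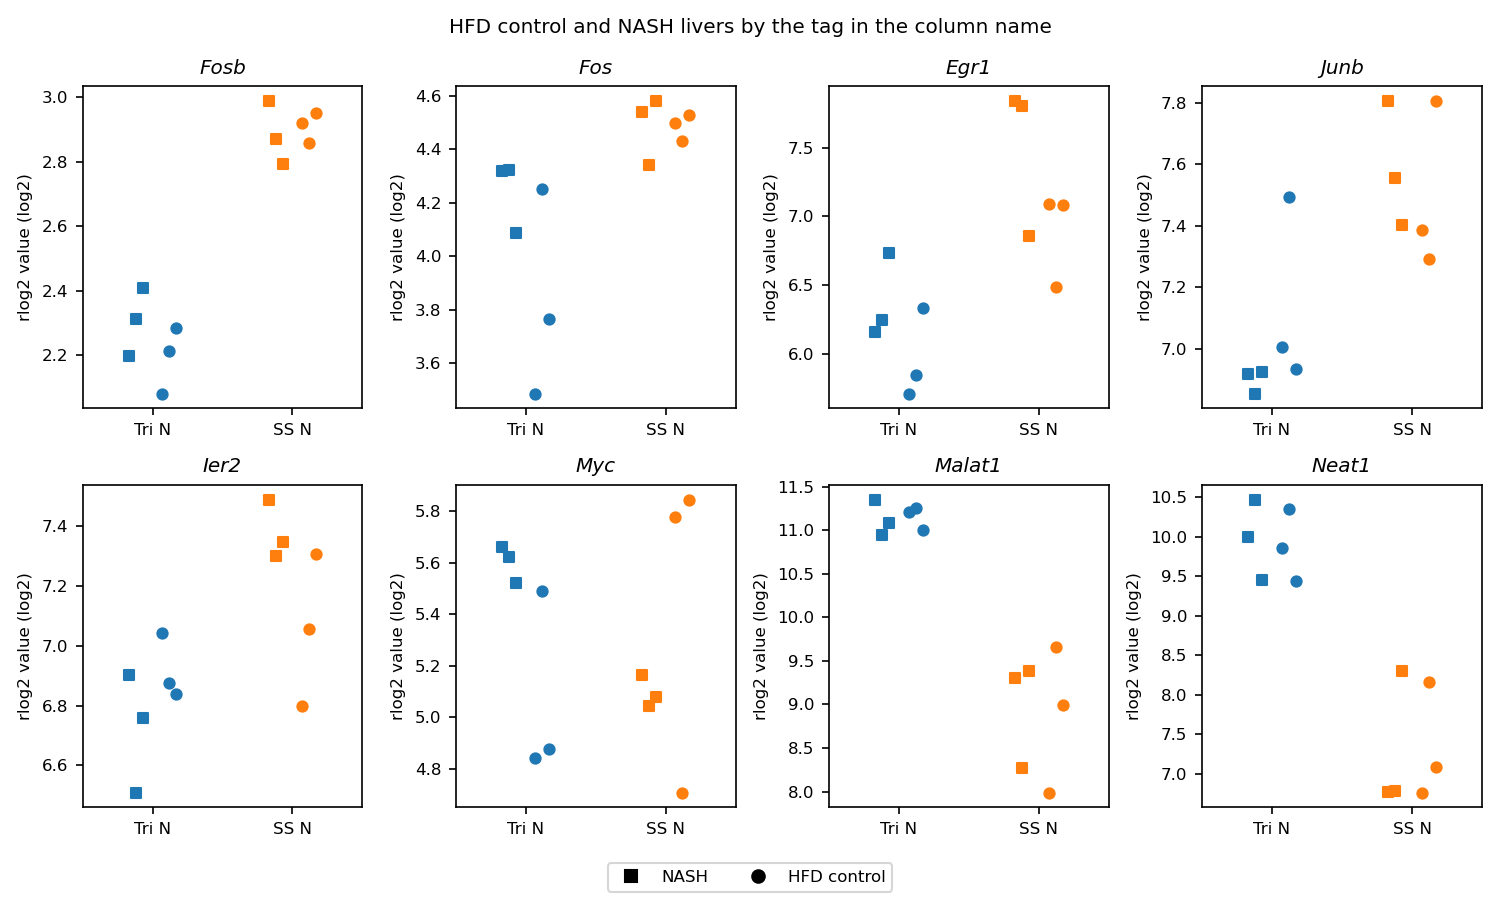
Values (rlog2, log2 scale) of 6 of the genes and of the nuclear RNAs Malat1 and Neat1 in NASH (squares) and HFD control (circles) livers by column tag, Tri N left and SS N right, 6 libraries each. Fosb and Fos were lower in every Tri N library, Malat1 and Neat1 higher, and Myc mixed.

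HFD control livers against NC livers gave different counts for the B6 and IgAkCLM controls, which share the B6 NC livers. In B6, Fos (0.91 ± 0.23, adjusted p = 0.00562), Jun (0.73 ± 0.22, 0.0205) and Klf6 (0.91 ± 0.19, 0.0012) were higher on HFD, 3 of 9, where 20.6% of all genes passed and 9.59% were higher. Fos stood at 4.50, 4.43 and 4.53 in B6 HFD control, against 3.43, 3.54 and 3.76 in B6 NC, and Klf6 at 7.93, 7.13 and 8.26 in B6 HFD control, against 6.99, 6.85 and 6.76 in B6 NC, both without overlap. Jun at 7.95, 7.49 and 7.95 in B6 HFD control touched 7.07, 6.63 and 7.50 in B6 NC, and its call was lost in 4 of 6 fits that left out 1 library and with only the compared groups (0.0518). Fosb differed by 0.74 ± 0.10 in the fit without a filter (adjusted p = 7.89e-06, 13.7% of all genes), with exact p = 0.1, the smallest that 3 against 3 can give. Egr1, at 7.09, 6.49 and 7.08 in B6 HFD control, against 5.36, 5.30 and 6.35 in B6 NC, differed by 1.22 ± 0.47 and did not pass (0.0671).

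In IgAkCLM HFD control against B6 NC none of the 9 genes passed by limma, none had an unadjusted p under 0.05, and 2.31% of all genes passed. Fos was at 0.25 ± 0.23, Klf6 at 0.19 ± 0.19 and Fosb at 0.02 ± 0.10. Whether the contrasts of the controls differ for each gene was not tested by itself. B6 HFD control carries the tag SS N, IgAkCLM HFD control Tri N and B6 NC Tri NC. Diet and tag cannot be told apart in either contrast, and in the IgAkCLM contrast genotype cannot be told apart from them either. In the B6 comparison 4 of 4 nuclear RNAs were lower, with a median difference of -2.42, and 4 of 13 heat shock genes were higher.

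NASH against NC, over MupHe and IgAkMup, called Jun (0.66 ± 0.16, adjusted p = 0.00534) and Fos (0.51 ± 0.16, 0.0291) as higher, 2 of 9, beside 16% of all genes called and 7.55% higher. The Fos call was lost in 6 of 12 fits that left out 1 library. Jun alone passed in MupHe, at 8.23, 7.98 and 7.81 in NASH against 6.86, 7.18 and 6.97 in NC (1.00 ± 0.22, 0.0124, where 1.93% of all genes passed and 0.948% were higher), and its call was lost in 4 of 6 such fits. None passed in IgAkMup (12.9% of all genes), where 2 had an unadjusted p under 0.05 and Fos was at 0.67 ± 0.23 (0.0504). In the fit without a filter Fosb rose by 0.71 ± 0.10 there (adjusted p = 3.16e-05, 7.76% of all genes) and by 0.41 ± 0.07 over both genotypes (0.000241, 10.1%). IgAkMup NASH carries the tag SS N, MupHe NASH Tri N and NC livers Tri NC, so stage, diet and tag cannot be told apart. Of the 4 nuclear RNAs 3 were lower in IgAkMup NASH than in NC (median -1.92), 3 over both genotypes (-0.88) and 0 in MupHe (0.03), and their part in the Fosb difference was not tested. Junb differed the other way from Jun in MupHe, at 6.92, 6.85 and 6.92 in NASH against 7.91, 7.78 and 7.71 in NC, without overlap (-0.90 ± 0.27, adjusted p = 0.0795).

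Tumours against NC livers, over the 3 genotypes, gave 9 of 9 genes higher in tumours, beside 62.4% of all genes called and 31.7% higher. The median difference of the group was 0.71, against 0.01 over all genes. Ier3 rose by 1.25 ± 0.17 (adjusted p = 4e-07), Klf6 by 1.10 ± 0.11 (9.03e-10), Myc by 1.06 ± 0.16 (2.42e-06), Jun by 0.92 ± 0.12 (3.16e-07) and Fos by 0.69 ± 0.13 (3.34e-05). Jun ranged from 7.84 to 8.31 in tumours (median 8.04) against 6.63 to 7.50 in NC livers (median 7.08), and Klf6 from 7.95 to 8.86 (median 8.31) against 6.76 to 7.58 (median 7.12), both without overlap. Egr1 (0.71 ± 0.26, 0.0201), Socs3 (0.48 ± 0.14, 0.00536), Junb (0.42 ± 0.15, 0.0158) and Ier2 (0.24 ± 0.11, 0.0477) also passed, and that of Ier2 was lost in 14 of 20 fits without 1 library, and in 5 other settings. The Egr1 call was lost with library weights (0.53, 0.123), without MupHe NC 2 (0.0582) and without IgAkMup NC 3 (0.0675). Fosb passed in the fit without a filter (0.22 ± 0.05, 0.00108, 48.0% of all genes). Tumours carry the tag SS H and NC livers Tri NC, so stage, diet and tag cannot be told apart. Of the 4 nuclear RNAs 2 were lower in tumours (median -0.66).

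Among the tumour groups, IgAkMup HCC had the highest mean of 7 of the 10 genes. Against MupHe HCC, IgAkMup HCC was higher in Fos (0.85 ± 0.20, adjusted p = 0.0073), Junb (0.91 ± 0.23, 0.0131) and Socs3 (1.12 ± 0.23, 0.00266), 3 of 9, where 10.1% of all genes passed and 4.12% were higher. Fos stood at 5.25, 5.20, 5.56 and 4.43 in IgAkMup HCC, against 4.52, 4.46, 3.65 and 4.39 in MupHe HCC. A single IgAkMup tumour, number 9, overlapped the MupHe tumours. With only these groups in the fit, none of the 3 passed (adjusted p = 0.634 for each), and with library weights Fos (0.229) and Junb (0.101) did not. The Junb call was also lost without MupHe HCC 4 (0.79, 0.0601).

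CD8kMup HCC was lower than IgAkMup HCC in 5 of 9 genes, where 22.9% of all genes passed and 11.2% were lower. These were Socs3 (-1.36 ± 0.24, adjusted p = 0.000445), Fos (-0.93 ± 0.21, 0.00315), Junb (-0.95 ± 0.25, 0.00755), Ier3 (-1.08 ± 0.29, 0.00827) and Egr1 (-1.29 ± 0.44, 0.0349). Socs3 stood at 6.00, 5.87 and 5.73 in CD8kMup HCC, against 7.48, 6.83, 6.86 and 7.75 in IgAkMup HCC, and Fos at 4.25, 3.93 and 4.36 in CD8kMup HCC, against 5.25, 5.20, 5.56 and 4.43 in IgAkMup HCC, both without overlap. With only the compared groups in the fit Socs3 alone passed, and the Egr1 difference without IgAkMup HCC 7 was -0.86 and did not pass (0.129). The Egr1 call was also lost with library weights (0.106) and without a filter (0.0558). The Ier3 call was lost without CD8kMup HCC 8 (-0.79, 0.0792). CD8kMup HCC against MupHe HCC gave 0 of 9 by limma, 2 with an unadjusted p under 0.05 (Klf6 and Ier3), and 1.32% of all genes. That is 163 genes, a count that was 9 without CD8kMup HCC 4 or without CD8kMup HCC 8, 1088 without MupHe HCC 4 and 0 with only the compared groups. Of the 4 nuclear RNAs 2 were lower in CD8kMup HCC than in IgAkMup HCC (median -0.92) and 1 was higher in IgAkMup HCC than in MupHe HCC (median 0.32). These genotype comparisons share tumours and are not independent.

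In NC livers no gene of the group differed between genotypes by limma. MupHe against B6 called 0.0486% of all genes, and 2 of the 9 had an unadjusted p under 0.05, Egr1, at 8.25, 6.50 and 6.97 in MupHe NC against 5.36, 5.30 and 6.35 in B6 NC (1.57 ± 0.47, adjusted p = 0.406), and Junb (0.61 ± 0.27, 0.879). IgAkMup and CD8kMup against MupHe each called 0.0162% of all genes, with 0 and 1 of the 9 genes at an unadjusted p under 0.05. Egr1 had the largest spread of the group: its SD within groups was 0.62, above 96.9% of all kept genes, against a median of 0.21. Ier3 (0.40), Myc (0.38), Junb (0.34) and Socs3 (0.33) followed, at percentiles of 84.6 to 89.9. Fosb, which lies under the filter, had the smallest SD of the group, 0.11, at percentile 2.

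The order of groups differed between genes. IgAkMup HCC was the highest group of the 11 for Fos, Junb, Egr1, Ier2, Ier3, Socs3 and Myc, MupHe HCC for Jun and Klf6, and B6 HFD control for Fosb. Fos averaged 5.11 ± 0.48 (SD, n = 4) in IgAkMup HCC, then 4.49 ± 0.13 (n = 3) in IgAkMup NASH and 4.49 ± 0.05 in B6 HFD control, and the IgAkMup NASH and B6 HFD control means differed by less than their SD. For Socs3, 7.23 ± 0.46 in IgAkMup HCC was followed by 6.19 ± 0.05 in MupHe NC, and CD8kMup NC was lowest at 5.56 ± 0.29. For Myc the 3 tumour groups stood at the top, at 7.05 ± 0.32, 6.90 ± 0.54 and 6.35 ± 0.22, and IgAkCLM HFD control was lowest at 5.07 ± 0.37.

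As a description over 35 libraries, the deviations from group means correlated at 0.71 for Junb with Ier3, 0.67 for Ier2 with Ier3, 0.58 for Junb with Ier2 and 0.52 for Egr1 with Ier3. Fos stood at 0.28 with Fosb and with Jun, and at 0.05 with Egr1. Socs3 went with Myc (0.40) and against Klf6 (-0.50). The 3 tumours that lay apart on the second component had Socs3 at 6.88 in MupHe HCC 3, 7.48 in IgAkMup HCC 5 and 7.75 in IgAkMup HCC 9, and Myc at 7.49, 7.02 and 7.44.

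**Figure D4:**
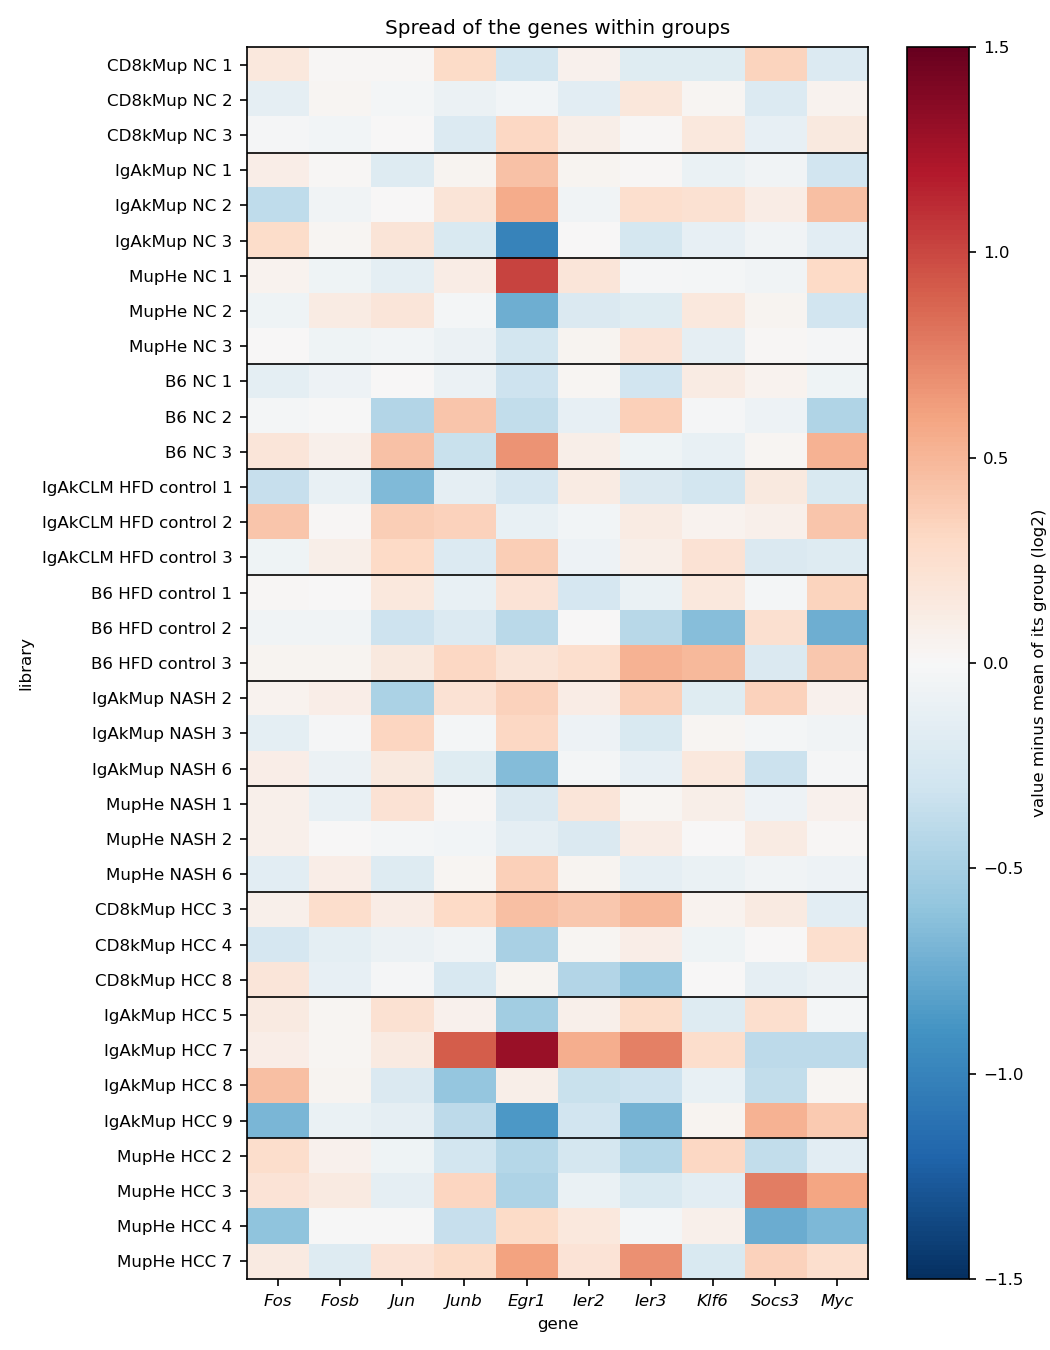
Deviation of each library (rows) from the mean of its group for the 10 genes (columns), in log2, red above and blue below, groups separated by lines. IgAkMup HCC 7 is high in Junb, Egr1, Ier2 and Ier3, and MupHe HCC 3 in Socs3 and Myc.

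Of the genes outside the group, those whose within-group deviations were most like the mean of the 9 were Tlr1 (Pearson r = 0.77), Socs5 (0.72), Stub1 (0.70), Ica1 (0.69), Tstd1 (0.68), Wfdc15b (0.68), Btg2 (0.68) and Crtap (0.67), over 35 libraries. Btg2, an immediate early gene that halts the cell cycle, is also on the feedback list and was 1.04 ± 0.27 higher in tumours than in NASH livers (adjusted p = 0.00249). With Fos alone in place of the mean, the 8 most like genes were Cdk14, Dennd3, Dock1, Efemp2, Maml3, Gabra3, Sytl2 and Ccdc3.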

How the data were processed

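RNA was extracted with a column kit, for some livers after Trizol, and polyA RNA was turned into libraries by a TruSeq Stranded mRNA kit, per the labels' protocols. STAR and Cuffdiff are named for HFD samples and STAR, HOMER and DESeq2 for NC samples, per the submitters' processing notes, with the mm10 genome and no versions or roles. The values are regularized log2 values in a table the authors deposited. The program behind them is not given in the sources used here. Of the columns, 6 fit both CD8kMup NASH and CD8kCLM HFD control by name and were not used, so those groups are not analysed here.

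Genes with a mean of at least 3 were kept (12337). A common limma model covered the 11 groups (limma 3.58.1, R 4.3.3, eBayes with trend), with Benjamini-Hochberg adjustment over all kept genes and a threshold of 0.05. Fosb was tested by exact two-sided permutation (scipy 1.17.1) and in the fit without a filter. The fit was also run on simulated data, with independent normal noise of the same SD in every library for each gene. That run does not test libraries of unequal spread. Members, the 18 further gene lists and the tests were chosen with earlier results of these data known. Named from each list were the 4 largest differences past 0.05 in tumours against NASH, NASH against HFD control or Tri N against SS N, plus the 8 genes most like the group.
Alternatives were no filter, a stricter filter, median centring, quantile normalization, no trend, robust eBayes and library weights. Others were the compared groups alone, a replicate block with NC livers alone, and leaving out each library. Leaving out the 3 tumours that lay apart was added after seeing the data. A gene that the naming rule covers is not reported here by name, though it stands in the counts of its list.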

Additional observations from a re-analysis of the deposited data

Results flagged for a closer look

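Fos in MupHe HCC 4, at 3.65, lay far from the other 3 MupHe tumours, which stood at 4.39 to 4.52. Fosb in IgAkMup HCC 9, at 2.31, lay far from the other 3 IgAkMup tumours, at 2.43 to 2.45. Of 20 sets of 4 tumours and 1 gene that were examined, these 2 stood out, where chance gives about 1 in 20.

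The HCC against NASH difference of Fosb differed between genotypes, by -0.60 in IgAkMup minus MupHe (limma without a filter, adjusted p = 0.00652). Beside it stand the values of the NASH livers, 2.79 to 2.99 in IgAkMup (tag SS N) and 2.20 to 2.41 in MupHe (tag Tri N). All of these lie under the filter, where values are shrunk, and the SD of Fosb within groups was 0.11.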

How the results depend on the processing

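The counts here are of genes of the group that passed, under each alternative. With library weights they were 1 for the difference of HCC against NASH between genotypes, 1 for NASH against HFD control, 3 within Tri N, 2 for the difference of these contrasts, 6 for Tri N against SS N, 5 for NASH against NC, 4 in MupHe and 3 in IgAkMup, 1 for IgAkMup HCC against MupHe HCC, and 1 each for MupHe NC against B6 NC and CD8kMup NC against MupHe NC. With only the compared groups they were 5 for HCC against NASH in IgAkMup, 5 for Tri N against SS N, 5 for NASH against NC and in MupHe, 3 in IgAkMup, 0 for IgAkMup HCC against MupHe HCC and 1 for CD8kMup HCC against IgAkMup HCC. Without a filter they were 1 for the difference between genotypes and 1 for NASH against NC in IgAkMup. That last comparison also gave 1 with median centring, quantile normalization, no trend and robust eBayes. Tri N against SS N gave 2 with the stricter filter (mean of at least 5) and robust eBayes and 3 with median centring. CD8kMup HCC against IgAkMup HCC gave 3 with the stricter filter. Without the 3 tumours that lay apart, the difference between genotypes gave 2. Calls over all genes also rose with library weights in the following comparisons. They were 4344 for Tri N against SS N (beside 1615 in the main fit), 5316 for NASH against NC (beside 1976) and 2386 for NASH against HFD control (beside 163). For NASH against NC they were 2479 in MupHe (beside 238) and 4961 in IgAkMup (beside 1594). With only the compared groups, 3205 of all genes passed for HCC against NASH in IgAkMup. For IgAkMup HCC, 335 passed against CD8kMup HCC and 0 against MupHe HCC. For Tri N against SS N and for NASH against NC, the count over all genes in that setting is not given here. The counts of the group there cannot be set against it.

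Leaving out 1 library each gave 7 to 8 for HCC against NASH, 4 to 6 in MupHe, 6 to 8 in IgAkMup, 0 to 1 for their difference, 0 for NASH against HFD control and in SS N, 0 to 1 in Tri N and for their difference, 0 to 2 for Tri N against SS N, 1 to 2 for NASH against NC, 0 to 1 in either genotype, 2 to 4 for HFD control against NC in B6, 0 for IgAkCLM HFD control, 7 to 9 for HCC against NC, 2 to 4 for IgAkMup HCC against MupHe HCC, 0 for CD8kMup HCC against MupHe HCC, 3 to 5 for CD8kMup HCC against IgAkMup HCC and 0 in NC livers. Over all genes the same fits called 5374 to 6238 for HCC against NASH, 2565 to 4027 in MupHe and 4185 to 5467 in IgAkMup. They called 7286 to 7783 for HCC against NC and 976 to 1803 for Tri N against SS N. Differences of the group's genes that changed sign all had no call. In NASH against HFD control Klf6 ranged from -0.11 to 0.17, Socs3 from -0.11 to 0.060, Myc from -0.092 to 0.20 and Junb from -0.13 to 0.011, and in Tri N against SS N Jun from -0.24 to 0.045 and Myc from -0.12 to 0.17. Over the settings other than leaving out 1 library, the count over all genes moved by over 1.5 times in every comparison but HCC against NASH (4309 to 6762, beside 5969) and HCC against NC (6409 to 9087, beside 7693). It was 335 to 3005 (beside 2831) for CD8kMup HCC against IgAkMup HCC, 0 to 530 (beside 163) for CD8kMup HCC against MupHe HCC, 0 to 79 (beside 2) for CD8kMup NC against MupHe NC, 3205 to 5948 (beside 5408) for HCC against NASH in IgAkMup, 1210 to 4190 (beside 3784) for HCC against NASH in MupHe, 2130 to 4111 (beside 2538) for HFD control against NC in B6 and 196 to 1609 (beside 285) for IgAkCLM HFD control against B6 NC. It ran from 1231 to 4344 (beside 1615) for Tri N against SS N, 0 to 1993 (beside 1249) for IgAkMup HCC against MupHe HCC, 13 to 717 (beside 31) for IgAkMup NASH against B6 HFD control, 1 to 200 (beside 2) for IgAkMup NC against MupHe NC, 13 to 2128 (beside 1236) for the difference of HCC against NASH between genotypes and 52 to 1941 (beside 69) for MupHe NASH against IgAkCLM HFD control. The counts were 3 to 151 (beside 6) for MupHe NC against B6 NC, 126 to 2386 (beside 163) for NASH against HFD control, 1811 to 5316 (beside 1976) for NASH against NC, 1320 to 4961 (beside 1594) for NASH against NC in IgAkMup, 215 to 2479 (beside 238) for NASH against NC in MupHe and 5 to 173 (beside 7) for the difference of the NASH contrasts.

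A fit with the replicate block in NC livers gave 0 genes of the group in each comparison, while MupHe against B6 called 113 genes in all, beside 6. The numbers do not pair the libraries: over 18 pairs the correlation of deviations ranged from -0.21 to 0.23, with 3 over 0.1. With no counts, what depth limits cannot be stated.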
